A study of Mus musculus with 4 samples.

Results

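The myosin genes of heart muscle were followed here across the 4 arrays of the study. They comprise the heavy chains Myh6, Myh7 and Myh7b, the light chains Myl1, Myl2, Myl3, Myl4 and Myl7, the myosin binding protein Mybpc3 and the light chain kinase Mylk3. These 10 genes, of 20886 named on the array, were taken from a list of gene symbols and found through the RefSeq accessions of the probes. Of the 10 genes, 7 had 1 probe and 3 had 2, which gave 13 probes. All samples were heart muscle cells isolated from male mice 10 weeks old. Every animal carried the same alleles, a Cre transgene under the αMHC promoter crossed to a tetO transgene of Yamanaka's OSKM factors (Pou5f1, Sox2, Klf4 and Myc). The control group had PBS for 2 days (2 arrays) and the doxycycline group had intraperitoneal doxycycline for 2 days (2 arrays), so all groups carried the transgenes and no animal without them was given the drug, which leaves drug and factors as effects that cannot be told apart. The promoter that restricts the transgene is that of Myh6, which is itself among the genes described. The labels do not say whether the arrays of a group came from separate animals, so the p-values rest on the spread between samples that may be technical repeats.

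Myosin of the thick filament is built from heavy chains, which hold the motor, and pairs of essential and regulatory light chains, which sit on the neck of the motor. In the adult mouse heart Myh6 (α-myosin, a fast motor) predominates, whereas Myh7 (β-myosin, a slower motor) is the main ventricular form of the fetal mouse and comes back in many models of heart stress. Ventricular muscle uses the light chains Myl2 (regulatory) and Myl3 (essential), and atrial muscle uses Myl7 (regulatory) and Myl4 (essential), the last of which is also made in the fetal ventricle. Mylk3 phosphorylates the regulatory light chain of heart muscle, and Mybpc3 binds the myosin heads and tail and tunes their access to actin.

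The 3 heavy chain genes each carry a microRNA inside the gene, and these are shown because the microRNAs are known to be made together with their host and to act on myosin isoform choice. The mature sequences are from RefSeq (GRCm38.p6), with the seed, bases 2 to 8, in capitals. They were not measured on these arrays.
mmu-miR-208a-3p (in Myh6, chr14:54949072-54949093, minus strand): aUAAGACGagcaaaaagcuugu
mmu-miR-208b-3p (in Myh7, chr14:54975710-54975731, minus strand): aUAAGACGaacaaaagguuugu
mmu-miR-499-5p (in Myh7b, chr2:155622893-155622913, plus strand): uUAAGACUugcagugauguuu
The microRNAs of Myh6 and Myh7 share the seed, and that of Myh7b has another last base in it.

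Promoters of RefSeq (GRCm38.p6), 250 bases before to 50 after the gene start, are shown for 4 members. Myh6 and Myh7 are the pair whose ratio differed most between the groups, and Myl4 and Myl7 are the atrial pair, whose levels took the same order over the arrays. Capitals mark matches on either strand to the M-CAT, GATA, thyroid receptor, TATA, MEF2 and CArG elements.
Myh6 (chr14:54966558-54966857, minus strand): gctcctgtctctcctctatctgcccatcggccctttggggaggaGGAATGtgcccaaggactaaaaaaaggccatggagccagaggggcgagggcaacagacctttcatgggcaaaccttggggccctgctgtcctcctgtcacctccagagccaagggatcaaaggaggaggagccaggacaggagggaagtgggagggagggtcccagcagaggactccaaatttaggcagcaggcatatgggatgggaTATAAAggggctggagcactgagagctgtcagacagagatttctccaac
Myh7 (chr14:54994577-54994876, minus strand): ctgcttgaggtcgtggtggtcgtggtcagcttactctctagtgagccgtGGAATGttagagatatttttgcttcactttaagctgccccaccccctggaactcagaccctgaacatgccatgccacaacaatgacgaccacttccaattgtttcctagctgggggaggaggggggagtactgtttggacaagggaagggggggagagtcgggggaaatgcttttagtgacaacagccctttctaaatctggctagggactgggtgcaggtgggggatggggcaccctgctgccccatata
Myl7 (chr11:5898733-5899032, minus strand): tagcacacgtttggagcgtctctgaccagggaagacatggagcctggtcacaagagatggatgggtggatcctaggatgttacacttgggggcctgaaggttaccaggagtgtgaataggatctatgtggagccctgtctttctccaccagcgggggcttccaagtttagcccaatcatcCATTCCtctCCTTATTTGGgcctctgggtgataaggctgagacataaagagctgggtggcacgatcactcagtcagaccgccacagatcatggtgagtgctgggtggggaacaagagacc
Myl4 (chr11:104550413-104550712, plus strand): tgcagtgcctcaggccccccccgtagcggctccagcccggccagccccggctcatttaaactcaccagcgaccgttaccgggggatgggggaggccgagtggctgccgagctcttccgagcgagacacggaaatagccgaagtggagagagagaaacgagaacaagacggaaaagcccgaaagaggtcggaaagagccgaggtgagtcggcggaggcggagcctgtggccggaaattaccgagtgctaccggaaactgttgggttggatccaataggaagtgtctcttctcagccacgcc
The M-CAT core (CATTCC), the letters that TEAD factors bind, was in a promoter of 6 of the 10 members, among them Myh6 (206 bases before the start), Myh7 (201 bases) and Myl7 (70 bases), and in 14.7% of 32851 promoters of this length. Here and below a member counts if any of its promoters has a match, whereas the shares are per promoter, so the 2 are not alike. Myh7, Myl2 and Mylk3 had 2 promoters each, and the second of Myh7, not shown, had no M-CAT core. A CArG element, bound by Srf, was in the promoters of Myl3 and Myl7 and in 1.63% of all promoters, and a MEF2 element was in that of Mybpc3 and in 3.19% of all. The GATA element (AGATAA) was in 3 members and 11.2% of all promoters. The TATA element (TATAAA) was in 3 members and 13.6% of all promoters. The core of the thyroid receptor element (AGGTCA) was in 2 members and 16.3% of all promoters. None of these letters was in the window of Myl4. E-box letters (CANNTG), which are not capitalised here, were in 9 members and in 72.3% of all promoters. No match overlapped that of another motif. A match is a description of the letters and shows neither binding nor its lack.

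The 75th percentile of the processed signal lay between 112 and 248 on the 4 arrays, and the share of spots well above background from 50.6% to 51.8%. All 15 heart muscle markers outside the myosin genes were measured, with a summed level (in units of the array's 75th percentile) of 2577 and 4693 with PBS and 3287 and 3370 with doxycycline. Control array 1 stood apart: repeated spots varied by 10.99% there and by 4.02% to 4.81% elsewhere, the median heart muscle marker was 1.21 lower there than in the other control, and endothelial, fibroblast, macrophage and red cell markers were higher by medians of 1.61, 1.67, 1.61 and 2.26 (log2). Between the groups, markers of other cells lay mostly below control: the median difference was -2.31 over 10 fibroblast markers (6 not overlapping), -1.005 over 9 macrophage markers (6 not overlapping), -1.58 over 6 red cell markers (6 not overlapping) and -0.18 over 10 endothelial markers (1 not overlapping). Every marker that did not overlap lay below control on both doxycycline arrays, as did 20.8% of all genes by their brightest probe. Among them the fibroblast marker Postn read 0.0006 and -2.07 with PBS, against -4.64 and -3.90 with doxycycline. It passed background on the control arrays alone and entered the median and the count only through them. None of the markers of these cells passed the test, and without control array 1 the medians were -1.39, -0.42, -0.46 and 0.49. Their part in the myosin values was not tested. Results are also given without control array 1. Among the introduced factors, the Myc probe differed by 3.41 (adjusted p = 0.328) and that of Klf4 by -0.28 (adjusted p = 0.968). Those of Sox2 and Pou5f1 were well above background on 0 and 1 arrays. Whether these probes detect the transgene copies, the mouse's own genes or both was not tested, so the values do not show which factors were induced. In these bulk samples, fewer cells of a type and less RNA per cell cannot be told apart.

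Below, a level is the log2 processed signal of a probe minus that of the array's 75th percentile, and a difference is the mean level of the doxycycline arrays minus that of the control arrays, with the standard error of the limma fit (SE, n = 2 per group). Levels of different probes are not compared, because probes differ in brightness. Of the 13 probes, 12 were well above background on every array and all 13 passed the filter (at least 2 of 4 arrays) and were tested. The myosin genes did not move as a group. Doxycycline lay above control for 7 probes and below for 6, with a median difference of 0.25, against -0.04 over the 16042 probes tested. No probe of the 13 passed an adjusted p of 0.05 with limma, as 0.00% of all probes did, and 1 had an unadjusted p under 0.05, as 6.92% of all probes did. Both doxycycline arrays were above both control arrays for 4 of 13 (Myh7, the dimmer Myl1 probe and both Mylk3 probes), against 16.0% of all probes. They were below both for 2 of 13 (Myl2 and Myl3), against 19.9%.

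**Figure D1:**
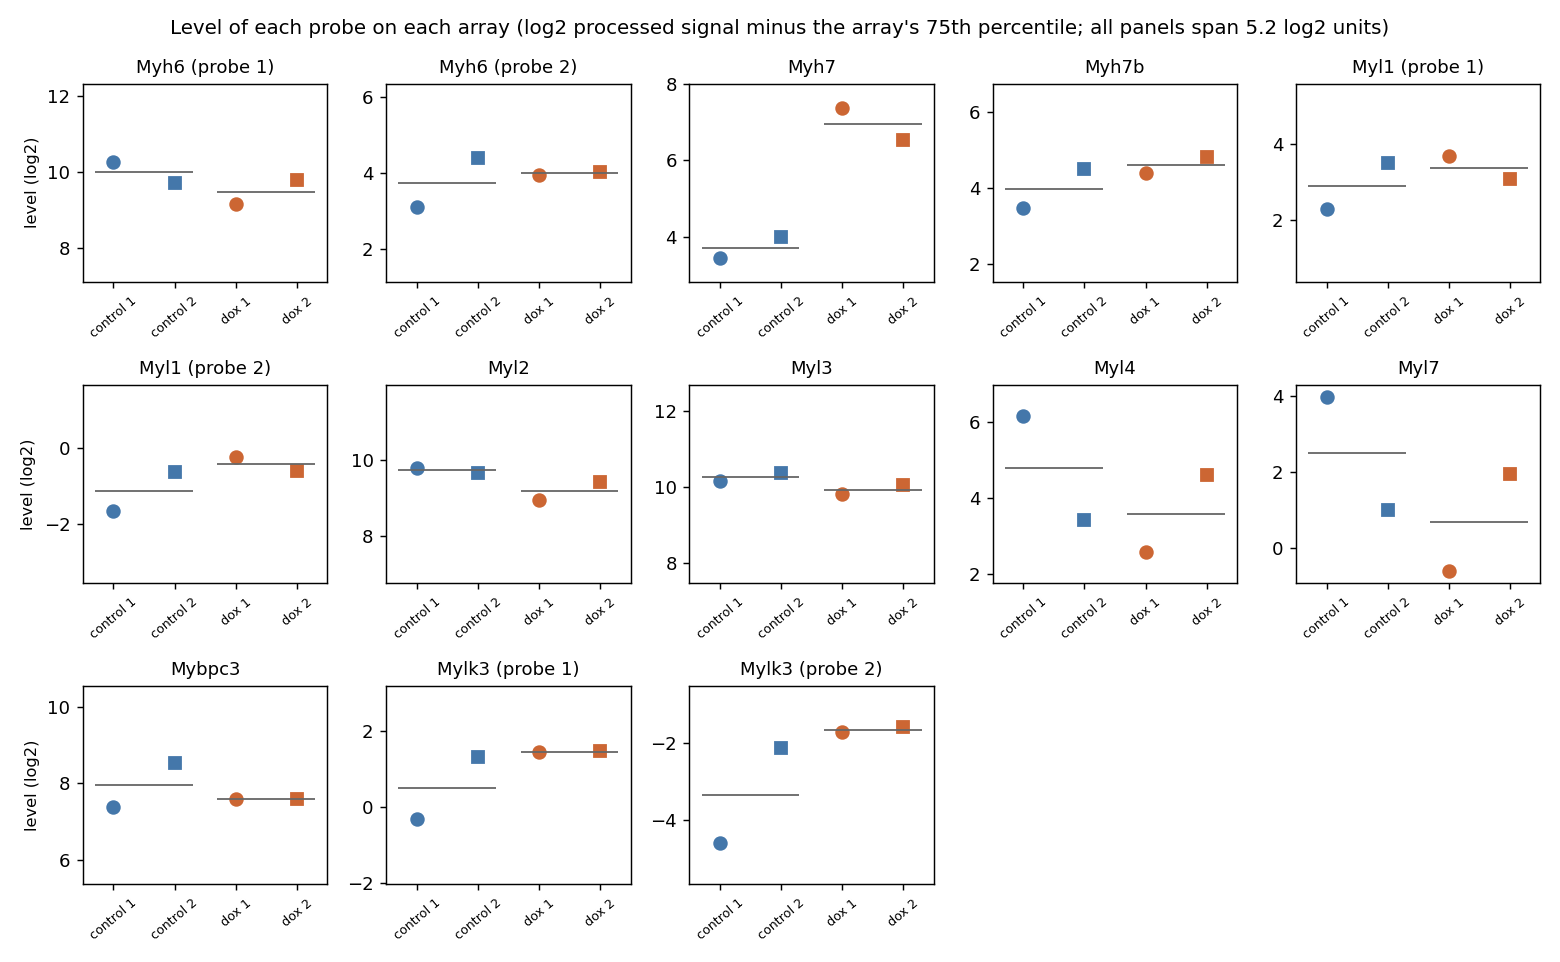
Level of each of the 13 probes on each array, in log2 units relative to the 75th percentile of the array (vertical axis, spanning the same number of units in every panel). Blue marks are control and orange marks doxycycline arrays (circle 1, square 2), and lines are group means; Myh7 reads 3.44 and 3.99 with PBS, against 7.39 and 6.53 with doxycycline, while Myl4 and Myl7 are high on control array 1 and low on doxycycline array 1.

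Myh7, the slow heavy chain, was the member with the greatest difference. Its level was 3.44 and 3.99 with PBS and 7.39 and 6.53 with doxycycline. Its processed signals were 1222 and 2705 with PBS, against 41575 and 17771 with doxycycline. The groups stood far apart, by more than the gap between arrays of either group, and the doxycycline arrays differed from each other more than the control arrays did. The difference was 3.24 ± 0.48 (SE, 9.47-fold higher after doxycycline, unadjusted p = 0.000305), and it did not pass over all probes (adjusted p = 0.177). By size it was number 31 among the 16042 probes counted from the most positive, and 0.480% of all probes differed by at least 3 in either direction. Without control array 1 the difference was 2.97 (adjusted p = 0.300), without control array 2 it was 3.51 (adjusted p = 0.0897) and without doxycycline array 1 it was 2.81 (adjusted p = 0.286). Without doxycycline array 2 it was 3.67 (adjusted p = 0.00792), a fit in which the control arrays alone give the spread and the lone doxycycline array is assumed to vary like them. The same limit holds for each fit with an array left out, where the complete group gives the spread.

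Myh6, the adult heavy chain, had 2 probes that pointed in opposite directions, neither past the test. The brighter probe read 10.28 and 9.73 with PBS and 9.17 and 9.81 with doxycycline. Doxycycline array 1 was the lowest and the groups overlapped, with a difference of -0.51 ± 0.45 (SE, adjusted p = 0.899). This probe was among the 7 brightest named probes on every array, and its processed signal moved less between arrays than their scaling did: 139374, 144636, 143414 and 172645 in the same order, while the 75th percentile ran from 112 to 248. The dimmer Myh6 probe read 3.10 and 4.38 with PBS, against 3.96 and 4.03 with doxycycline. Its lowest value was control array 1, and both doxycycline arrays lay between the control arrays (0.25 ± 0.52, adjusted p = 0.972). Without control array 1 it differed by -0.39 and the brighter probe by -0.23. Both probes carry the same accession, and what part of the transcript each detects was not tested, nor whether a Myh6 probe also detects the closely related Myh7.

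Myh7b, a slow-type heavy chain that hosts the third microRNA shown above, read 3.46 and 4.50 with PBS, against 4.38 and 4.82 with doxycycline. The groups overlapped and control array 1 was alone at the bottom. The difference was 0.62 ± 0.49 (SE, adjusted p = 0.886), and 0.10 without control array 1.

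The balance of the heavy chains is given by the log2 ratio of 2 probes on the same array, which does not depend on how an array is scaled to its percentile; its absolute value has no meaning, and its change between arrays does. The Myh7 to Myh6 ratio was -6.83 and -5.74 with PBS and -1.79 and -3.28 with doxycycline. Both doxycycline arrays were higher than both control arrays. The shift was 3.75 ± 0.93 (SE), a 13.5-fold change of the ratio toward Myh7 by the brighter Myh6 probe. With the dimmer Myh6 probe, an alternative chosen after the values were seen, the ratio was 0.34 and -0.40 with PBS against 3.43 and 2.50 with doxycycline, and the shift was 2.99 ± 0.59 (7.96-fold). Whether the signal of the brighter probe follows its RNA in proportion was not tested. For both probes an exact permutation test over the 4 arrays gave p = 0.333 (two-sided), the smallest it can give with 2 arrays against 2. By the brighter probe the shift was between 3.01 and 4.50 with any 1 array left out. A ratio shows unequal change and does not say that either gene held its level. The ratio of Myh7b to Myh6 also had separate groups (-6.81 and -5.22 against -4.79 and -4.99), with a shift of 1.13 ± 0.80, and 0.33 without control array 1. With the dimmer Myh6 probe that shift was 0.37 ± 0.22.

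The ventricular light chains lay slightly lower on the doxycycline arrays. Myl2, the regulatory chain, read 9.79 and 9.64 with PBS, against 8.94 and 9.41 with doxycycline. The groups did not overlap (-0.54 ± 0.41, SE, adjusted p = 0.884). Myl3, the essential chain, read 10.15 and 10.35 with PBS, against 9.80 and 10.04 with doxycycline, again without overlap (-0.33 ± 0.40, adjusted p = 0.940). Without control array 1 the differences were -0.47 and -0.43. Both are among the brightest probes, and their direction rests on the scaling. The processed signals themselves were 99547 and 136439 against 121860 and 130844 for Myl2 and 127334 and 223415 against 221373 and 202592 for Myl3. Among the 30 brightest probes 20 lay below control, with a median of -0.07. Myl3 turned to 0.12 under quantile normalization and to 0.02 under scaling to the median, whereas Myl2 kept its sign (-0.30 and -0.20). Relative to each other they hardly moved: the Myl2 to Myl3 ratio shifted by -0.21 ± 0.21 (exact permutation p = 0.667).

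The atrial light chains varied more within the groups than between them. Myl7, the regulatory chain of the atria, read 3.97 and 1.01 with PBS and -0.59 and 1.94 with doxycycline. The highest value was a control array and the lowest a doxycycline array, and the others crossed. The difference was -1.81 ± 1.13 (SE, adjusted p = 0.866). Myl4, the essential chain, read 6.17 and 3.44 against 2.58 and 4.60, in the same order of arrays (-1.21 ± 1.003, adjusted p = 0.889). Without control array 1 Myl7 differed by -0.33 and Myl4 by 0.15, and without doxycycline array 1 by -0.54 and -0.21. The Myl7 to Myl2 ratio shifted by -1.27 ± 1.74 and the Myl4 to Myl3 ratio by -0.88 ± 1.71 (exact permutation p = 0.667 each). Without control array 1 these shifts were 0.14 and 0.59.

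Some other genes of atrial muscle had a like order over the arrays. Of 10 atrial markers, 9 were measured and Bmp10 did not pass background on any array. Control array 1 exceeded control array 2 by a median of 1.56 over the 9, and doxycycline array 1 minus doxycycline array 2 had a median of -0.81. Of the 9, 4 (Gja5, Nr2f1, Mybphl and Dkk3) were highest on control array 1 and lowest on doxycycline array 1, as Myl4 and Myl7 were. So were 17.9% of all genes, 6 of 6 red cell, 6 of 10 fibroblast and 5 of 9 macrophage markers, so the order is not one of atrial genes alone. Mybphl, a myosin binding protein of atria, read 0.28 and -2.11 with PBS, against -2.89 and -0.90 with doxycycline, and Gja5, an atrial and conduction system connexin, read -0.21 and -1.77 against -3.12 and -1.78. Sln, which inhibits the calcium pump in atria, was high on control array 1 and doxycycline array 2 (3.83 and 3.59) and low on the others (1.05 and 1.51). Nppa went another way, with 5.92 and 7.33 against 7.20 and 5.54. The summed level of the 9 was 84.8 and 168.7 with PBS, against 154.0 and 65.3 with doxycycline. Nppa, the brightest of the 9 on every array, made up most of that sum, so the sum does not describe the other markers. The part of atrial or other cells in the Myl4 and Myl7 values was not tested.

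**Figure D2:**
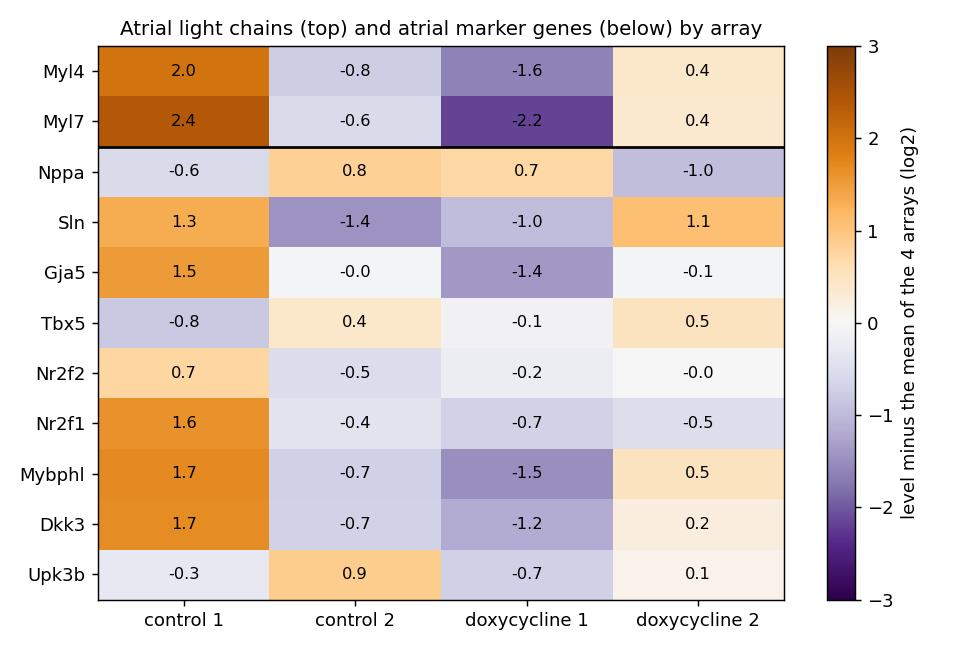
Level of Myl4, Myl7 and the 9 atrial markers that were measured, each minus its own mean over the 4 arrays (log2, colour scale and printed values). Myl4 and Myl7 are highest on control array 1 and lowest on doxycycline array 1, as are Gja5, Nr2f1, Mybphl and Dkk3, while Nppa, Tbx5 and Upk3b are not highest on control array 1.

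Myl1, the essential light chain of fast skeletal muscle that is also made in the embryonic heart, had 2 probes for different transcripts. The brighter one read 2.28 and 3.48 with PBS, against 3.68 and 3.06 with doxycycline, and the dimmer -1.64 and -0.62 against -0.24 and -0.60. Groups overlapped for the brighter probe and were apart by a narrow margin for the dimmer one. The differences were 0.49 ± 0.54 (SE, adjusted p = 0.928) and 0.71 ± 0.49 (adjusted p = 0.880), and -0.12 and 0.20 without control array 1. Fast skeletal muscle markers were partly absent: of 12, 5 did not pass background on any array (Myh1, Myh2, Myh4, Mylpf and Actn3). The 7 measured had a median difference of 0.51 (-0.19 without control array 1). Their summed levels were 14.0 and 34.3 with PBS, against 44.5 and 25.6 with doxycycline, and Acta1 and Atp2a1 made up most of these sums. Tnnt3, 1 of the 7, read -4.11 and -3.96 with PBS, against -3.10 and -3.41 with doxycycline. It passed background on the doxycycline arrays alone and entered the test only through them. The part of fast skeletal muscle in the Myl1 values was not tested.

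Mybpc3 and Mylk3, which bind or modify the myosins, differed in direction. Mybpc3 read 7.38 and 8.54 with PBS, against 7.60 and 7.58 with doxycycline. The doxycycline arrays were nearly equal and lay between the control arrays (-0.37 ± 0.50, SE, adjusted p = 0.952), so that the sign turned with the control used: -0.95 without control array 1 and 0.21 without control array 2. The brighter Mylk3 probe read -0.32 and 1.30 against 1.44 and 1.47, and the dimmer -4.61 and -2.12 against -1.71 and -1.57. Control array 1 was far below the other arrays for both probes, and the dimmer was not well above background there. The differences were 0.96 ± 0.59 (adjusted p = 0.858) and 1.73 ± 0.78 (adjusted p = 0.767), and 0.15 and 0.48 without control array 1. The Mylk3 to Myl2 ratio was higher on both doxycycline arrays (shift 1.51 ± 0.91, exact permutation p = 0.333, and 0.62 without control array 1). Whether the signal of the bright Myl2 probe follows its RNA in proportion was not tested. The Mybpc3 to Myh6 ratio shifted by 0.14 ± 0.92. Its sign turned with the array left out (-0.71 without control array 1 and 0.998 without control array 2) and with the probe: the shift was -0.62 ± 0.08 with the dimmer Myh6 probe.

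**Figure D3:**
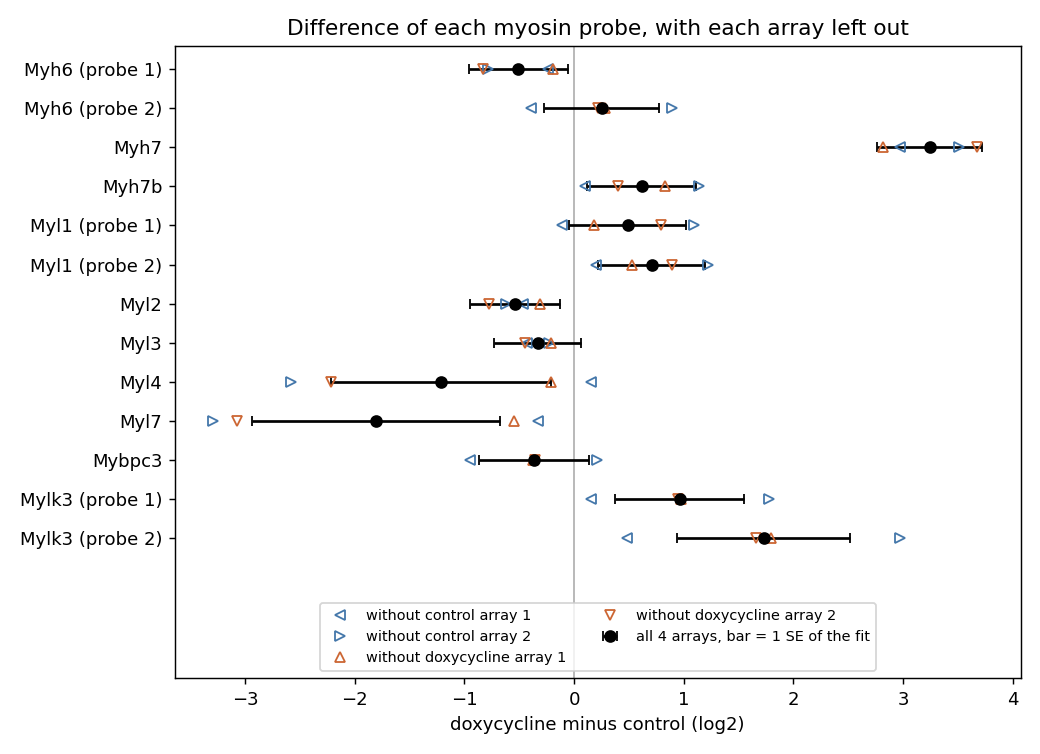
Doxycycline minus control for each probe (log2, horizontal axis) over all arrays (black, with 1 SE of the fit) and with each array left out (open marks). Myh7 stays between 2.81 and 3.67 in every fit, and for Myl4, Mybpc3, the dimmer Myh6 probe and the brighter Myl1 probe at least 1 mark lies on the other side of 0.

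**Figure D4:**
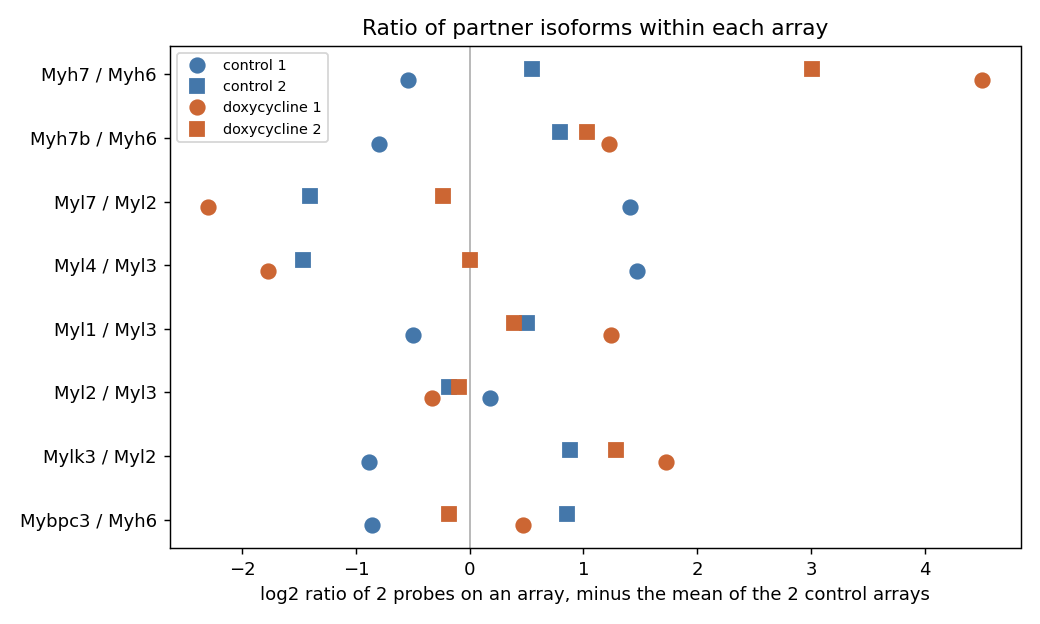
Log2 ratio of the brightest probes of 2 genes on each array, minus the mean ratio of the control arrays, for the 8 pairs compared (blue control, orange doxycycline, circle array 1, square array 2). The groups are apart for Myh7 to Myh6, Myh7b to Myh6 and Mylk3 to Myl2 and overlap for the other 5 pairs.

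In all, 8 such pairs were compared, of which the Myl1 to Myl3 ratio (0.82 ± 0.66) has not been given above. It was 0.32 without control array 1 and 0.39 without doxycycline array 1. For every pair with Myl2 or Myl3, whether the signal of that bright probe follows its RNA in proportion was not tested. The groups did not overlap for 3 pairs, and none can pass the exact test at this size. For any ratio, 2 of the 6 possible splits of the arrays keep the groups apart, and 3 of 8 is near that share. Some pairs also share a probe, such as that of Myh6, so the count is not a result about the pairs.

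The other myosin genes gave a background of the same kind. Of 11 further heavy chains, 5 were measured on at least 2 arrays and 5 were not well above background on any array, among them the embryonic Myh3 and the fast skeletal Myh1, Myh2 and Myh4. None passed the test, and 1 had an unadjusted p under 0.05, as 7.14% of all genes did. The median difference was -0.34, against -0.06 over 12542 genes by their brightest probe. That median turned to 0.37 without control array 1. Myh14, a nonmuscle heavy chain, had the smallest p: it read 2.51 and 4.04 with PBS, against 4.62 and 4.79 with doxycycline (1.43 ± 0.57, SE, adjusted p = 0.695, and 0.66 without control array 1). The probe of Myh8, the perinatal heavy chain, was bright on all arrays (6.62 and 6.85 against 6.38 and 6.41), and whether it detects other heavy chains was not tested. Both doxycycline arrays were higher for 1 of the 5 and lower for 1, where 14.5% of all genes were higher and 20.8% lower.

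Of 7 further light chains 5 were measured and none passed. An unadjusted p under 0.05 was reached by 1 of them, and by 7.14% of all genes by their brightest probe. The median difference was -0.51, against -0.06 over all genes, and it was -0.12 without control array 1. Myl9, the regulatory chain of smooth muscle, read 4.49 and 4.19 with PBS, against 3.23 and 1.97 with doxycycline (-1.74 ± 0.53, SE, adjusted p = 0.509), and it differed by -1.59 without control array 1. It is itself 1 of 9 smooth muscle and pericyte markers, of which 7 were below control (median -0.59, and 0.06 without control array 1) with summed levels of 93.4 and 78.7 with PBS, against 39.9 and 25.9 with doxycycline; the part of such cells in the Myl9 value was not tested. Myl12a, a nonmuscle regulatory chain, read 6.26 and 6.95 against 7.42 and 7.09 (0.65 ± 0.44, adjusted p = 0.877, and 0.31 without control array 1).

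Genes that fold or remove myosin differed in direction among themselves. All 9 were measured, 6 lay above control, and 3 had an unadjusted p under 0.05, as 7.14% of all genes did by their brightest probe. None passed over all probes, and the median difference of 0.22 turned to -0.21 without control array 1. Fbxo32, a ubiquitin ligase of muscle wasting, read -1.34 and -0.41 with PBS, against 0.58 and 0.35 with doxycycline (1.34 ± 0.47, SE, adjusted p = 0.612). Trim54, a ligase of the sarcomere, differed by 1.35 ± 0.55 (adjusted p = 0.695) and Hsp90aa1, the chaperone that works with Unc45b on myosin heads, by 0.97 ± 0.40 (adjusted p = 0.707). Unc45b itself went the other way (2.29 and 2.11 against 1.29 and 2.09, adjusted p = 0.898). Without control array 1 these 4 differed by 0.87, 0.65, 0.95 and -0.42. Of the other binding proteins, kinases and phosphatase subunits, 8 of 11 were measured and none had groups that did not overlap. Over all genes by their brightest probe, 14.5% had both doxycycline arrays higher and 20.8% had both lower.

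Factors known to act on heart myosin genes were near 0 as a list. Of 24, 22 were measured, while Sox6 and Med13 failed to pass background throughout. Of the 22, 12 lay above control and 10 below. Their median was 0.02, against -0.06 over all genes by their brightest probe. None had an unadjusted p under 0.05 (limma), against 7.14% of all genes. Tead4, a TEAD factor of the M-CAT element, passed background on the doxycycline arrays alone (-3.72 and -4.46 with PBS against -2.63 and -3.52). With its PBS value taken as a bound, the mean of the doxycycline arrays was 1.70-fold higher. The nearest arrays of the groups lay much closer, at -3.72 and -3.52. Tead4 entered the test only through the arrays where it was high, so its adjusted p of 0.799 (limma) carries no weight. Mef2d differed by 0.84 ± 0.43 (SE, adjusted p = 0.813). Gata6 differed by 0.62 ± 0.47 and Rxra, the partner of thyroid hormone receptors, by 0.56 ± 0.41 (adjusted p = 0.884 each). Mef2d, Gata6 and Rxra differed by 0.51, 0.15 and 0.31 without control array 1. The median of the list was -0.15 without control array 1.

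The genes most like a member in their pattern over the 4 arrays were sought among 12062 genes, by the distance between levels after the mean of each gene was removed. Nearest to Myh7 were Fah, an enzyme of tyrosine breakdown (distance 0.48), Etfbkmt, a mitochondrial methyltransferase (0.65), and Mgst1, a glutathione transferase (0.66), with differences of 2.86, 2.85 and 2.62. No other member was near it: the closest was Mylk3 at 2.49, which came number 701. Nearest to Myl4 were Mybphl (0.33), Fmr1nb (0.46) and Srp54b (0.51), and Myl7 was number 22. Nearest to Myl7 were Prrt4 (0.70), Myl4 (0.72) and Ccdc8 (0.76). Of these neighbours only Mybphl is on the list of atrial markers. With 4 arrays many genes can lie close by, and the order is a description.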

How the data were processed

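The authors scanned 1-colour Cy3 arrays and, per the file headers, read each spot's intensity with Agilent Feature Extraction 10.7.1.1. In the deposited files the processed intensity has had background and spatial trend removed within an array, with no scaling between arrays; no later step of the authors is stated. All arrays lay on 1 slide of 1 scan day with each group at neighbouring positions, so position and group cannot be told apart.

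Here each array was scaled by the 75th percentile over its 43020 non-control spots, after log2 transformation. Outlier spots (127 to 234 an array) were dropped, and repeated spots averaged. Accessions named 27508 of 39429 probes, for 20886 genes, through RefSeq (GRCm38.p6, used for names); 1641 RefSeq accessions did not match and 10280 probes had another identifier. Every named probe that passed background on 2 or more arrays was tested (16042), with limma 3.58.1 (lmFit and eBayes, 4.71 prior and 2 residual degrees of freedom, two-sided) in R 4.3.3, Benjamini-Hochberg adjusted, threshold 0.05. The brightest probe stood for a gene in pairs, lists and pattern searches. A gene below background on both arrays of a group has its fold as a bound, against its own value there or the lowest signal that passed background, whichever was higher. In 20 simulated sets of 16042 probes with 200 changed, the test found 0.8% of changes of 2 (log2), 26.3% of 3 and 70.6% of 4, with 3 false calls a set. The simulated noise was independent between probes and equal over the arrays. It leaves out a deviation shared by many probes, such as that of control array 1. The number of arrays limits the precision.

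The members and the lists were chosen with earlier results of these data known. Named genes are the members, up to 4 per list with the smallest p, list members below background in 1 group alone, and genes nearest in pattern; absent and atrial markers were named after their values were seen. Alternatives were normexp (offset 50, on the median spot signal), quantile and median scaling, other filters, probes and variance models, an unadjusted threshold, the replicate number as a block and each array left out. Python 3.11.15 and matplotlib 3.10.9 drew the figures.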

Additional observations from a re-analysis of the deposited data

How the results depend on the processing

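Calls depended on the setting for Myh7 alone among the members. No member probe passed in the analysis described, and 1, that of Myh7, passed under scaling to the median (3.59, adjusted p = 0.00675), with the replicate number as a block (3.24, adjusted p = 2.7e-05), without doxycycline replicate 2 (3.67, adjusted p = 0.00792) and at an unadjusted p under 0.05 with an absolute difference of at least 1. Leaving out 1 array gave 0 to 1 member probes, with the spread taken from the complete group alone and the lone array assumed to vary like it. Over all probes the count was 0 in the analysis described, 139 under scaling to the median, 8 with no filter on dim probes, 355 with the replicate block, 1095 under the unadjusted rule, and 0 to 160 with 1 array left out. Under the other planned settings it was 0. With the replicate block limma took the same spread for every probe, and same-numbered arrays did not deviate together (r = -0.087 across probes), so the numbers are not known to pair them. It changed no other member's call. A slide block was not run, there being 1 slide. Scaling to the median raised every difference by 0.35. Of 201 values of member probes under the alternatives, 191 kept their direction and side of the threshold, 4 passed and 6 turned: Myl3 under quantile normalization (0.12) and scaling to the median (0.017), the brighter Myl1 probe (-0.12 to 1.09 over arrays left out), Myl4 (-2.58 to 0.15), the dimmer Myh6 probe (-0.39 to 0.89) and Mybpc3 (-0.95 to 0.21); the cause was not tested. Against the dimmer Myh6 probe, chosen after the data were seen, the shifts of Myh7, Myh7b and Mybpc3 were 2.99, 0.37 and -0.62. The Myh7 difference was 2.81 to 3.67 over all 16 alternatives. In the simulation, arrays of 2 against 2 left changes of 3 (log2) or less mostly undetected, with 26.3% of changes of 3 found and 70.6% of 4.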
